A study of Mus musculus with 17 samples.

Results

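Phosphatidylcholine (PC) is the most abundant phospholipid of animal cell membranes, and the 10 genes described here encode enzymes that make it, split it or exchange its fatty acids. They were chosen by name, with earlier results of these data known. They comprise the acyltransferases Lpcat1, Lpcat2, Lpcat3, Lpcat4, Mboat1 and Mboat2, the lysophospholipases Lypla1 and Lypla2, and the synthesis enzymes Chpt1 and Pcyt1a. Each was read from the probe set of the mouse skeletal muscle arrays that carries its symbol alone, which gave 10 of the 19938 genes tested, with 1 probe set for each. Values are log2 expression values from robust multi-array averaging (RMA), a method that corrects background, equalises the arrays and summarises the probes of a gene, so a difference of 1 is a doubling.

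PC is built in muscle mainly by the CDP-choline route, in which choline is phosphorylated, activated with CTP and then joined to diacylglycerol. A phospholipase A can later remove a fatty acid and leave lysophosphatidylcholine (lysoPC), and a lysophospholipid acyltransferase puts another fatty acid in its place. This exchange, the Lands cycle, sets how unsaturated a membrane is, while lysophospholipases remove the remaining fatty acid from lysoPC and so take it out of the cycle.

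Total RNA of skeletal muscle from 17 male C57BL/6N mice with no genetic change, 5 to 6 months old, was measured with 1 array per mouse. The Con,SD group (n = 7) had been mock-injected with citrate buffer and ate standard diet. The STZ,SD group (n = 5) was given the beta cell toxin streptozotocin at 65 mg/kg on 5 days when aged 10 to 16 weeks, and ate the same diet. The STZ,BEZ group (n = 5) had the same injections and, from 2 weeks later, 8 weeks of chow with 0.25% or 0.5% bezafibrate, a drug that activates peroxisome proliferator-activated receptors (PPARs), and which mouse ate which strength was not given. The labels call the arrays biological replicates and do not say which muscle was taken. The study had measured lysoPCs in plasma and tissues of such mice, and the question here was which enzymes of lysoPC turnover differed in muscle RNA with diabetes and with the drug.

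The tissue label fitted its markers. The mean level of 14 muscle fibre genes, among them Ckm and Acta1, lay between 13.1 and 13.4 on every array. Arrays of a group correlated at 0.959 or more with each other in Con,SD and at 0.988 or more in both diabetic groups. Markers of other cells were present and not evenly spread. The mean of 14 hepatocyte genes reached 11.8 on Con,SD array 1, against 7.38 to 9.72 on the other Con,SD arrays. It was 7.87 to 8.78 in STZ,SD and 7.48 to 8.13 in STZ,BEZ. By sign 13 of the 14 were lower in STZ,BEZ than in Con,SD (median -1.42). An adjusted p under 0.1 in limma was reached by 8, all lower (57.1%, where 21.6% of all genes passed, 8.45% lower). Con,SD array 1 was also highest for 16 testis genes, with 8.13 against at most 5.68. The mean of 12 endothelial genes was 8.61 to 8.84 in the controls, 8.85 to 9.11 in STZ,SD and 8.97 to 9.06 in STZ,BEZ, so the controls lay below all other arrays. The mean of 10 adipocyte genes was 9.10 to 10.3 in the controls, 8.55 to 9.39 in STZ,SD and 8.90 to 9.77 in STZ,BEZ. In bulk RNA, fewer cells of a type and less RNA per cell cannot be told apart.

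The stretches upstream of 3 of the genes are shown because Lpcat3 and Chpt1 were lower in STZ,SD than in Con,SD and Lpcat4 was higher. They come from the RefSeq promoter table (GRCm38.p6), end at the base before the gene and run 5′ to 3′ on the gene's own strand. Capitals mark CCAAT boxes (CCAAT) and GC boxes (GGGCGG) on either strand.
Lpcat3 (chr6:124662854-124663093, plus strand): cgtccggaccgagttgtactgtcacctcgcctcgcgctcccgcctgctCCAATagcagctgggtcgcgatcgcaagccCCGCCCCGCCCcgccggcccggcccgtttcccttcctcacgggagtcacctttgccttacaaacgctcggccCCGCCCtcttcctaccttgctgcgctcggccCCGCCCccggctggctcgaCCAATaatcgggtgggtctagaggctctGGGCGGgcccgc
Chpt1 (chr10:88503971-88504220, minus strand): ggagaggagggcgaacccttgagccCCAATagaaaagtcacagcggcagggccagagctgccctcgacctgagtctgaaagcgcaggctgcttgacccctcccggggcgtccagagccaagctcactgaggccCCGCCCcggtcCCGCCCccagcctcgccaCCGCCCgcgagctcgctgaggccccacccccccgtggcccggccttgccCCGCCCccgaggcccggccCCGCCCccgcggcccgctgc
Lpcat4 (chr2:112239591-112239840, plus strand): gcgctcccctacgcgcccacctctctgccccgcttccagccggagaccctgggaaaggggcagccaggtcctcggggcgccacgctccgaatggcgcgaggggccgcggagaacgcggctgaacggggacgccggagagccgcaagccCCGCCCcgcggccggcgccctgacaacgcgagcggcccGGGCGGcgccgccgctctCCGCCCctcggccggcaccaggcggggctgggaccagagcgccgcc
All 3 were rich in G and C, with 70.4% in Lpcat3, 75.6% in Chpt1 and 79.6% in Lpcat4. Lpcat3 and Chpt1 carried CCAAT boxes and several GC boxes, and Lpcat4 carried GC boxes and no CCAAT box.

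The table held windows of 300 bases, 250 before and 50 after a gene's start, for 9 of the 10 genes, and Lypla1 had none. A GC box was found in windows of 9 genes, where 35.7% of all 32851 windows hold one, and a CCAAT box in those of 5 genes, where 37.4% do. TATAAA was found in Lpcat2 alone, against 13.6% of all windows. The nuclear receptor hexamer AGGTCA was found in 1 of 3 windows of Pcyt1a and in no other of these genes, against 16.3% of all windows. Direct repeats of this hexamer, which contain it, were found in 0 of the 9 genes, against 0.0396% of all windows with a spacer of 1 base and 0.0152% with a spacer of 4 bases. The E-box CACGTG was also found in 0 of the 9, against 7.15% of all windows. All motifs were searched on both strands, and a match or its absence is a description of these letters only.

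**Figure D1:**
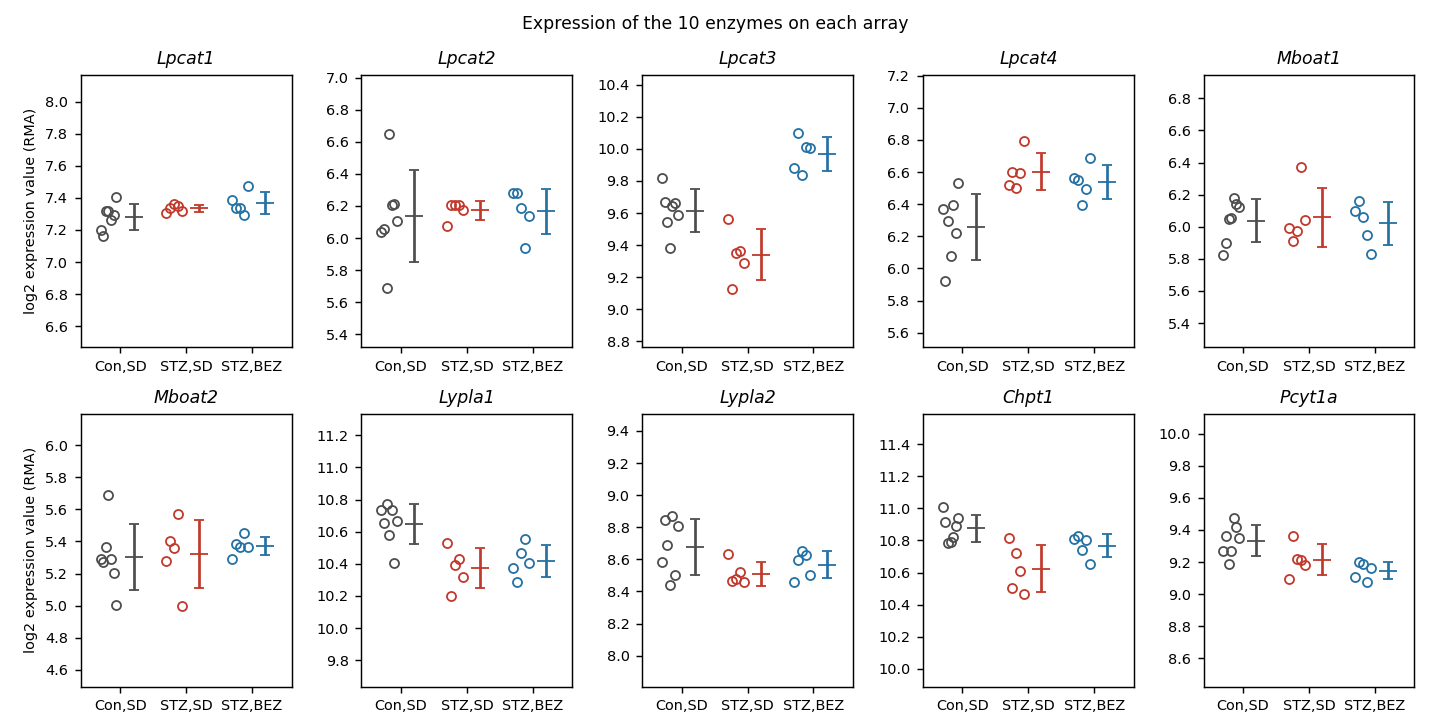
Log2 expression value (RMA, y axis) of each of the 10 genes on every array of the Con,SD, STZ,SD and STZ,BEZ groups (x axis). Points are arrays, dashes are group means and capped bars are the standard deviation of the group. Every panel spans the same number of log2 units. The 5 STZ,BEZ arrays of Lpcat3 lie between 9.84 and 10.10, above all arrays of the other groups.

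Lpcat3 encodes the membrane-bound acyltransferase that places polyunsaturated fatty acids such as linoleate and arachidonate into lysoPC, and it is a known target gene of the liver X receptors. Its level in Con,SD ran from 9.38 over a median of 9.64 to 9.82. In STZ,SD the 5 arrays read 9.56, 9.12, 9.35, 9.37 and 9.29. In STZ,BEZ they read 9.88, 10.10, 9.84, 10.01 and 10.01. The 3 groups were ordered STZ,SD, Con,SD and STZ,BEZ, with 4 of 5 STZ,SD arrays below every control and 5 of 5 STZ,BEZ arrays above every array of both other groups, the nearest control lying just under the lowest of them.

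Expression of Lpcat3 in STZ,SD against Con,SD fell by 0.28 ± 0.08 (log2 difference ± SE from limma, 95% interval -0.44 to -0.11, adjusted p = 0.0203), which is 1.21-fold lower. In STZ,BEZ against STZ,SD it rose by 0.63 ± 0.09 (0.45 to 0.81, adjusted p = 0.00457), or 1.54-fold, the third smallest p of all genes. Against Con,SD it rose in STZ,BEZ by 0.35 ± 0.08 (0.19 to 0.52, adjusted p = 0.00618), or 1.28-fold. The comparisons share their groups, so these values are not independent of each other.

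The fall in STZ,SD was the one difference of Lpcat3 that lost its call in an alternative analysis. With the adipocyte marker level as a covariate it was -0.17 (adjusted p = 0.137) and with the endothelial marker level -0.13 (adjusted p = 0.623). Both rises in STZ,BEZ passed the threshold in all 32 alternative analyses, with log2 differences of 0.55 to 0.68 against STZ,SD and 0.31 to 0.51 against Con,SD.

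Lpcat4, an acyltransferase of lysoPC and lysophosphatidylethanolamine, was higher in diabetic muscle. Its level in Con,SD ran from 5.92 over a median of 6.30 to 6.53. In STZ,SD the arrays read 6.52, 6.60, 6.50, 6.60 and 6.79. In STZ,BEZ they read 6.57, 6.55, 6.39, 6.50 and 6.69. The highest control reached into both diabetic groups, with 3 of 5 arrays of each above it, and the diabetic groups covered much the same range. Lpcat4 rose by 0.34 ± 0.09 (0.16 to 0.53, adjusted p = 0.0120), or 1.27-fold, in STZ,SD and by 0.28 ± 0.09 (0.09 to 0.47, adjusted p = 0.0440), or 1.21-fold, in STZ,BEZ against Con,SD. Between STZ,BEZ and STZ,SD the difference was -0.064 ± 0.10 (-0.27 to 0.14, adjusted p = 0.997). The difference between STZ,BEZ and Con,SD lost its call without STZ,BEZ array 5 (0.24, adjusted p = 0.116) and without Con,SD arrays 1, 3 and 4 (0.27, adjusted p = 0.106).

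The other acyltransferases did not pass the threshold in any comparison. Lpcat1, which favours saturated fatty acids and is best known from lung surfactant, lay between 7.16 and 7.47 on all arrays. Its differences from Con,SD were 0.054 ± 0.05 in STZ,SD (-0.05 to 0.16) and 0.087 ± 0.05 in STZ,BEZ (-0.02 to 0.19), with adjusted p of 0.484 and 0.263. Lpcat2, which also makes platelet-activating factor in inflammatory cells, lay between 5.69 and 6.65 with both extremes in Con,SD, and its differences of 0.035 ± 0.11, -0.0066 ± 0.12 and 0.028 ± 0.11 in the 3 comparisons had the widest intervals of the 10 genes, from -0.20 to 0.27, from -0.26 to 0.25 and from -0.20 to 0.26. The mean of 14 macrophage markers lay between 6.80 and 7.47 over all arrays. Of the 14, 0 passed between STZ,SD and Con,SD, where 25.8% of all genes did, and 0 between STZ,BEZ and STZ,SD, where 0.0201% did. Between STZ,BEZ and Con,SD 1 passed, lower, where 21.6% of all genes passed, 8.45% lower.

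Mboat1 and Mboat2 encode membrane-bound acyltransferases of the same family as Lpcat3, which act on other lysophospholipids, lysophosphatidylserine and lysophosphatidylethanolamine among them, and in the case of Mboat2 also on lysoPC. Mboat1 lay between 5.82 and 6.37 and Mboat2 between 5.00 and 5.69. Their differences were at most 0.07 in size in all comparisons, and Mboat2 was among the 30% of genes with the lowest mean level, where a probe set may carry little signal above background.

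Lypla1 and Lypla2 encode lysophospholipases, also known as acyl-protein thioesterases because they remove palmitate from proteins, and Lypla1 was lower in both diabetic groups. Its level in Con,SD ran from 10.41 over a median of 10.66 to 10.77. In STZ,SD the arrays read 10.53, 10.20, 10.39, 10.43 and 10.32. In STZ,BEZ they read 10.37, 10.29, 10.47, 10.56 and 10.41. The lowest control lay within both diabetic groups, while the other 6 controls lay above all 10 arrays of them. Lypla1 fell by 0.28 ± 0.07 (-0.43 to -0.12, adjusted p = 0.0120), 1.21-fold, in STZ,SD and by 0.23 ± 0.07 (-0.38 to -0.08, adjusted p = 0.0379), 1.17-fold, in STZ,BEZ against Con,SD. The difference between STZ,BEZ and STZ,SD was 0.044 ± 0.08 (-0.12 to 0.21, adjusted p = 0.997). The lower level in STZ,BEZ lost its call without STZ,BEZ array 2 (-0.20, adjusted p = 0.111), without Con,SD arrays 1, 3 and 4 (-0.20, adjusted p = 0.141) and with the hepatocyte level as a covariate (-0.20, adjusted p = 0.125).

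Lypla2 lay between 8.44 and 8.87 in the controls, 8.46 and 8.63 in STZ,SD and 8.46 and 8.65 in STZ,BEZ. Its difference in STZ,SD was -0.17 ± 0.08 (-0.33 to -0.01, adjusted p = 0.134), which had an unadjusted p of 0.04 and missed the threshold. It passed with array weights (-0.22), after a second quantile normalization (-0.17), without Con,SD array 4 or 6, and without Con,SD arrays 1, 3 and 4 together (-0.25). The controls held both the lowest and the highest value of the gene, and 3 of 7 controls lay inside the range of the STZ,SD arrays or below it.

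Chpt1, the cholinephosphotransferase of the last step of the CDP-choline route, was lower in STZ,SD. Its level in Con,SD ran from 10.78 over a median of 10.89 to 11.01. In STZ,SD the arrays read 10.82, 10.50, 10.72, 10.61 and 10.47. In STZ,BEZ they read 10.81, 10.83, 10.74, 10.80 and 10.65. Of the STZ,SD arrays 4 lay below every control, and the STZ,BEZ arrays overlapped with both other groups. Chpt1 fell by 0.25 ± 0.06 (-0.39 to -0.12, adjusted p = 0.0109), 1.19-fold, in STZ,SD against Con,SD. The difference was 0.14 ± 0.07 (-0.00 to 0.29, unadjusted p = 0.0566, adjusted p = 0.893) in STZ,BEZ against STZ,SD and -0.11 ± 0.06 (-0.25 to 0.03, adjusted p = 0.265) in STZ,BEZ against Con,SD.

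Pcyt1a encodes the alpha form of the enzyme that activates phosphocholine with CTP, the rate-limiting step of the route. Its level in Con,SD ran from 9.19 over a median of 9.35 to 9.47. In STZ,SD the arrays read 9.09, 9.36, 9.22, 9.22 and 9.18, and in STZ,BEZ 9.11, 9.20, 9.19, 9.07 and 9.16. STZ,BEZ was the lowest group, with 4 of 5 arrays below every control, and array 2 of STZ,SD lay at the control median. Pcyt1a fell by 0.19 ± 0.06 (-0.31 to -0.06, adjusted p = 0.0398), 1.14-fold, in STZ,BEZ against Con,SD. The differences of -0.12 ± 0.06 (-0.24 to 0.00, adjusted p = 0.169) in STZ,SD against Con,SD and -0.067 ± 0.06 (-0.20 to 0.07, adjusted p = 0.985) in STZ,BEZ against STZ,SD did not pass, though the former passed with array weights (-0.15), without STZ,SD array 2 and without Con,SD arrays 1, 3 and 4 (-0.19). Significance analysis of microarrays (SAM), the method of the study, did not call Pcyt1a in STZ,BEZ against Con,SD.

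**Figure D2:**
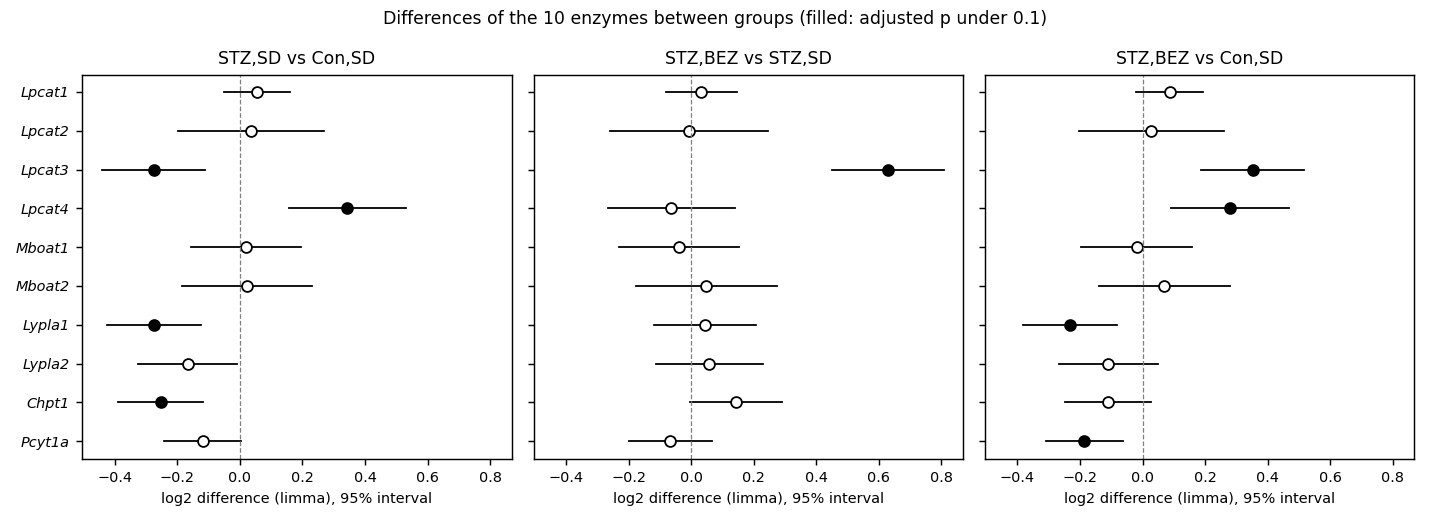
Log2 difference from limma (x axis, points) with its 95% interval (lines) for the 10 genes (rows) for STZ,SD against Con,SD, STZ,BEZ against STZ,SD and STZ,BEZ against Con,SD. Filled points have an adjusted p under 0.1, and Lpcat3 is the one filled point of the middle panel, at 0.63.

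Across the 10 genes, 4 passed the threshold between STZ,SD and Con,SD, 1 higher (Lpcat4) and 3 lower (Lpcat3, Lypla1, Chpt1), where 25.8% of all genes passed, 13.9% higher and 11.9% lower. Their median difference was -0.050, against -0.0095 over all genes, and no gene had groups that did not overlap, where 8.3% of all genes did. With the endothelial marker level as a covariate 0 of the 10 passed, and the calls over all genes went from 5142 to 1114. The estimates of Lpcat4 (0.36 ± 0.15), Lypla1 (-0.35 ± 0.12) and Chpt1 (-0.26 ± 0.11) were of similar size in that fit and their errors were larger, whereas that of Lpcat3 went from -0.28 to -0.13. Of the 12 endothelial genes, 7 passed and all 7 were higher in STZ,SD, and their mean level separated Con,SD from STZ,SD without overlap.

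In STZ,BEZ against STZ,SD 1 of the 10 passed, Lpcat3, where 0.0201% of all genes did, 4 in number and all higher. The 10 genes were chosen with earlier results of these data known, so no enrichment can be read from these shares. The number over all genes was 25 by SAM (24 higher), 12 with the hepatocyte level as a covariate, 11 with array weights and 8 with the compared groups alone, and Lpcat3 was the one of the 10 called in each of these. It was also the one with groups that did not overlap, where 1.16% of all genes did, 0.677% of all genes higher. The median of the 10 was 0.038 against 0.0016 over all genes. The 95% intervals of the other 9 lay between -0.27 and 0.29, below the lower bound of 0.45 for Lpcat3, though differences between genes were not tested. Against Con,SD, 4 passed in STZ,BEZ, Lpcat3 and Lpcat4 higher and Lypla1 and Pcyt1a lower, where 21.6% of all genes did, 13.1% higher and 8.45% lower. Only Lpcat3 had groups that did not overlap, where 8.51% of all genes did and 6.01% were higher. With the hepatocyte level as a covariate 3 passed and Lypla1 did not. With the endothelial level as a covariate 1 passed, Lpcat3, and without Con,SD arrays 1, 3 and 4 there were 2. Over all genes the calls went from 4298 to 4092 with the hepatocyte level, 777 with the endothelial level and 3178 without these arrays.

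A further 67 genes of PC synthesis, phospholipid cleavage and lysophospholipid turnover were read beside these. They too were listed with earlier results of these data known. Between STZ,SD and Con,SD 20 of them passed, 4 higher and 16 lower (29.9%, where 25.8% of all genes passed), with a median of -0.039. Groups did not overlap for 5 of the 67, against 8.3% of all genes. The count was 11 with the adipocyte level as a covariate, 3 with the endothelial level, and 13 and 11 without STZ,SD arrays 2 and 3. In the same settings the calls over all 19938 genes went from 5142 to 4353, 1114, 4008 and 3814. Among 17 genes listed for synthesis and choline uptake, with a carnitine transporter among them, 1 rose and 6 fell (41.2%). Etnk1, an ethanolamine kinase, rose by 0.23 ± 0.05 (adjusted p = 0.00245), from 7.39 to 7.56 in Con,SD to 7.61 to 7.75 in STZ,SD with no overlap. The falls were those of the phosphatidylserine synthases Ptdss2 (-0.25 ± 0.07, adjusted p = 0.0187) and Ptdss1 (-0.20 ± 0.07, adjusted p = 0.0508), the choline transporter-like genes Slc44a2 (-0.19 ± 0.06) and Slc44a1 (-0.20 ± 0.08), the phosphatidylserine decarboxylase Pisd (-0.14 ± 0.06) and the choline and ethanolamine phosphotransferase Cept1 (-0.19 ± 0.08, adjusted p = 0.0992). Slc44a1 was read from the one of its 2 probe sets with the higher mean. Cept1 performs the same step as Chpt1, and both were lower.

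Among 26 phospholipases, 1 rose and 6 fell in STZ,SD, which is 26.9% and near the 25.8% of all genes. Pla1a, a phospholipase A1 of phosphatidylserine, fell by 0.69 ± 0.14 (adjusted p = 0.00198), from 7.73 to 8.21 in Con,SD to 6.86 to 7.68 in STZ,SD. Plb1, a phospholipase B, fell by 0.38 ± 0.09 (adjusted p = 0.00927). Its values come from the one of its 7 probe sets with the highest mean, and the others are not shown. Groups did not overlap for these 2 of the 26, against 8.3% of all genes. The calcium-independent phospholipases Pnpla8 (-0.34 ± 0.09) and Pla2g6 (-0.24 ± 0.08), the secreted Pla2g2d (-0.46 ± 0.15) and the platelet-activating factor hydrolase Pla2g7 (-0.62 ± 0.23, adjusted p = 0.0656) were lower, and the cytosolic Pla2g4e (0.30 ± 0.08) was higher.

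Among 24 other genes of lysophospholipid turnover, 2 rose and 4 fell, a share of 25% that did not exceed the 25.8% of all genes. Agpat2, which acylates lysophosphatidic acid and is needed for adipose tissue, fell by 1.14 ± 0.25 (adjusted p = 0.00354), 2.21-fold, from 8.23 to 9.73 in Con,SD to 7.49 to 8.16 in STZ,SD without overlap, and it is the largest of the 20 differences. It moved together with the adipocyte level given above, of whose 10 genes 3 passed, all lower, and the part of that level in the difference was not tested. Gde1, a glycerophosphodiester phosphodiesterase, fell by 0.36 ± 0.07 (adjusted p = 0.00102), from 9.53 to 9.75 in Con,SD to 9.12 to 9.43 in STZ,SD. Lpgat1 (-0.34 ± 0.10) and Gpat4 (-0.19 ± 0.07) were lower, and Tmem68 (0.32 ± 0.07) and Agpat3 (0.29 ± 0.09) higher.

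Between STZ,BEZ and STZ,SD 0 of the 67 passed by limma. An unadjusted p under 0.05 was found for 8 of the 67, a larger share than the 5.69% of all genes. The median of the 67 was 0.045. The smallest p belonged to Gde1, which was 0.23 ± 0.07 higher (adjusted p = 0.778) with no overlap. Groups did not overlap for 3 of the 67, all higher, against 1.16% of all genes, 0.677% of all genes higher. The next were Agpat2 (0.72 ± 0.27), the lysosomal phospholipase B-like Plbd1 (0.22 ± 0.08) and Pla2g6 (0.21 ± 0.08), none of them past the threshold. Against Con,SD, 11 passed in STZ,BEZ, 7 higher and 4 lower (16.4%, where 21.6% of all genes did). With the endothelial level as a covariate 3 passed, and the calls over all genes went from 4298 to 777. Etnk1 (0.32 ± 0.05, adjusted p = 0.000323) and Tmem68 (0.36 ± 0.07, adjusted p = 0.00379) were higher and Plb1 (-0.51 ± 0.09, adjusted p = 0.00162) lower, each without overlap. In this comparison groups did not overlap for 4 of the 67, against 8.51% of all genes. Gpat3 (0.32 ± 0.09), Agpat3 (0.31 ± 0.09), Pnpla6 (0.17 ± 0.06), Gpcpd1 (0.19 ± 0.07) and Pnpla7 (0.24 ± 0.09) were also higher, and Pla1a (-0.48 ± 0.14), Ptdss2 (-0.21 ± 0.07) and Abhd3 (-0.32 ± 0.12) lower.

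**Figure D3:**
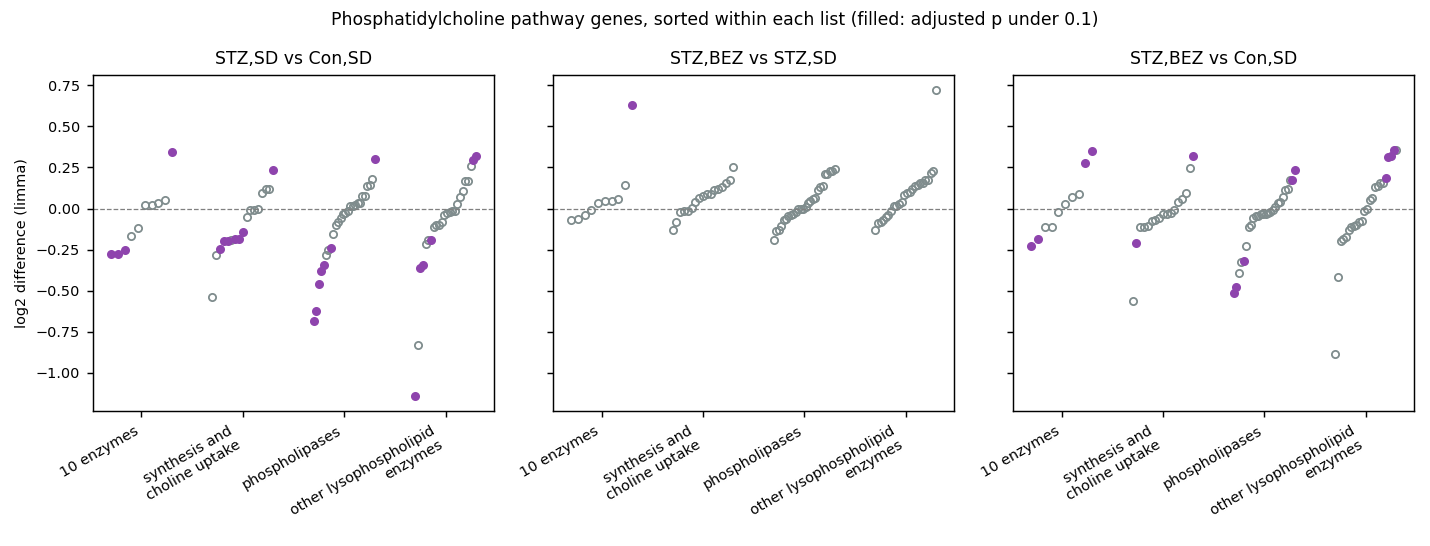
Log2 difference from limma (y axis) of the 10 enzymes and of the 67 other pathway genes by list, one panel per comparison, with filled points for an adjusted p under 0.1. Filled points are few in the STZ,BEZ against STZ,SD panel, where Lpcat3 stands alone, and Agpat2 is the lowest filled point of STZ,SD against Con,SD at -1.14.

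The genes whose values over the 17 arrays were most like those of Lpcat3 were sought among all 19938, as a description over arrays that share groups and normalization. The Pearson correlation was 0.835 for Srebf1, 0.817 for Echdc1, 0.784 for Dennd4c, 0.780 for Scarb1 and 0.768 for Mtg1. With the group means taken off, which leaves the spread within groups, the correlation was 0.877 for Echdc1, 0.548 for Scarb1, 0.446 for Mtg1, 0.292 for Dennd4c and 0.237 for Srebf1. Srebf1, a transcription factor of lipid synthesis, had the same group order as Lpcat3, with means of 8.92, 8.63 and 9.79, and rose by 1.16 ± 0.13 (adjusted p = 0.000732) in STZ,BEZ against STZ,SD. Echdc1 had means of 8.30, 8.04 and 8.36, and its 0.32 ± 0.11 (adjusted p = 0.778) in the same comparison did not pass. Scarb1, the high-density lipoprotein receptor, had means of 8.41, 8.31 and 8.81, a difference of 0.49 ± 0.13 (adjusted p = 0.738).

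**Figure D4:**
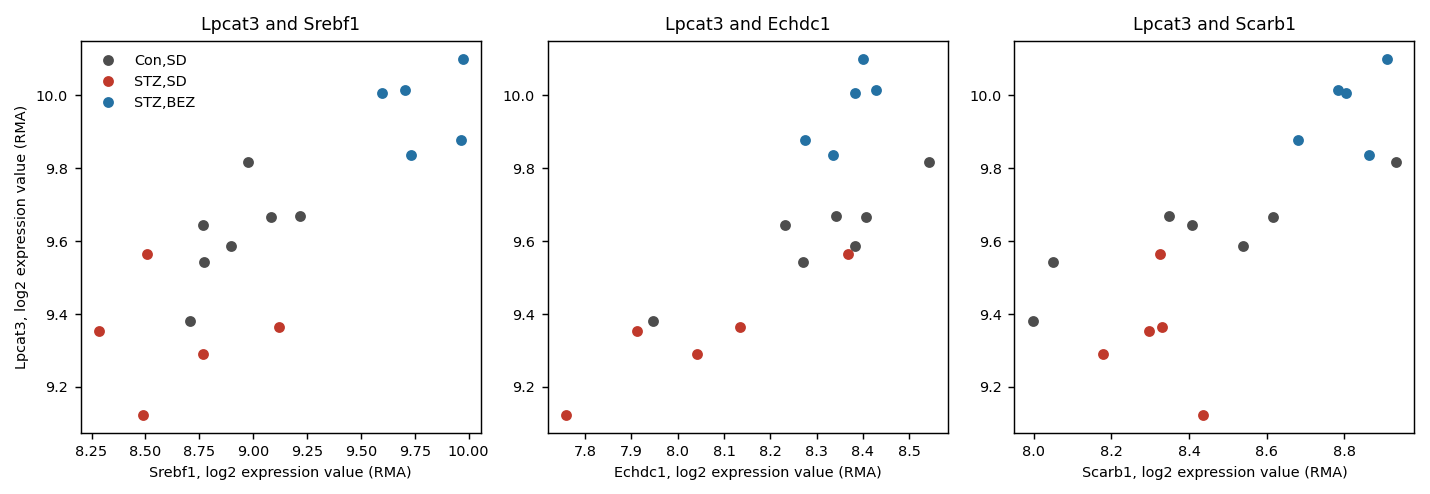
Log2 expression value (RMA) of Lpcat3 (y axis) against that of Srebf1, Echdc1 and Scarb1 (x axes) on the 17 arrays, coloured by group. The STZ,BEZ arrays are separate from all others along Srebf1, from 9.60 to 9.97, whereas along Echdc1 and Scarb1 they overlap with Con,SD.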

How the data were processed

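The authors hybridised skeletal muscle RNA to Affymetrix Mouse Gene 1.0 ST arrays and deposited log2 expression values made with RMA (Affymetrix Expression Console 1.2 in the submitters' notes), which equalises the distributions of the arrays and so hides a shift shared by most genes. The values ran from 2.76 to 14.6 with array medians of 6.22 to 6.32. No batch was tested, since scan dates and detection p-values were not analysed here. Of 35556 probe sets, 21789 had 1 gene symbol, and the probe set with the highest mean was kept per gene, which left 19938 genes.

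All 17 arrays were fitted together by lmFit and eBayes of limma 3.58.1 (R 4.3.3), with Benjamini-Hochberg adjustment over all genes and a threshold of 0.1, after the false discovery rate that the study used. The p-values set a difference of group means against the spread between mice within groups, pooled over the groups and moderated across genes. The number of arrays limits the precision. The 10 genes, the pathway and marker lists and the searched motifs were chosen with earlier results of these data known. The genes named are the 10, the pathway genes past the threshold in a comparison (or the 4 with the smallest p), and the 5 most like Lpcat3. Of the listed genes, 6 were not matched and were not analysed here. They are the pathway genes Chkb, Etnk2, Pla2g4b, Lipc and Enpp2 and the adipocyte marker Cfd.

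Alternatives were a second quantile normalization, median centring, a filter on the 30% dimmest genes, other choices of probe set, an intensity trend, array weights, only the compared groups, SAM (own code, 100 permutations), the hepatocyte level as a covariate, leaving out Con,SD arrays 1, 3 and 4 (doubted in an earlier analysis of these data) together or each array in turn, and the replicate number as a block. The adipocyte and endothelial levels as covariates were added after seeing the data. The fit was tested on simulated data. The methods of the study give other dosing than the labels (another streptozotocin dose, the higher bezafibrate strength alone and untreated controls), and the labels were followed.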

Additional observations from a re-analysis of the deposited data

Results flagged for a closer look

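Outlying arrays were sought in each group of each of the 10 genes, 30 groups in all, and 2 were found, where chance gives about 1 in 20. The lowest Lpcat2 value of STZ,SD, 6.074 on array 1, stood apart from the next, 6.173, by 0.748 of the group's range. The highest Mboat1 value of STZ,SD, 6.372 on array 4, stood apart from the next, 6.042, by 0.713 of the range. Neither gene passed the threshold in any comparison with or without these arrays.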

How the results depend on the processing

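Lpcat3 passed the threshold in STZ,BEZ against STZ,SD and in STZ,BEZ against Con,SD under all 32 alternatives, with adjusted p of 0.000224 to 0.0869 and 0.00135 to 0.0569. Its lower level in STZ,SD against Con,SD had adjusted p of 0.00769 to 0.623 and lost its call with the adipocyte and endothelial covariates alone. With the endothelial covariate the counts past the threshold were 0 for STZ,SD and 1 for STZ,BEZ, each against the controls, among the 10 genes, and 3 in either for the 67 pathway genes. Over all genes these counts went from 5142 to 1114 and from 4298 to 777. With the adipocyte covariate 11 pathway genes passed in STZ,SD against Con,SD, and 4353 of all genes. Without Con,SD arrays 1, 3 and 4 the 10 genes had 2 calls in STZ,BEZ against Con,SD, and all genes 3178. The cause was not tested. Leaving out each array in turn gave 4 to 5, 1 to 1 and 3 to 4 calls among the 10 genes in the 3 comparisons, and 11 to 22, 0 to 0 and 8 to 11 among the pathway genes. Over all genes the calls ranged from 3814 to 5430, from 4 to 6 and from 2998 to 4712.

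Signs changed for small differences that did not pass in either setting. In STZ,SD against Con,SD these were Lpcat1 with the endothelial covariate (-0.0002), Lpcat2 with the hepatocyte (-0.043), adipocyte (-0.0025) and endothelial (-0.048) covariates, Mboat1 with the hepatocyte (-0.050) and adipocyte (-0.0004) covariates and without Con,SD arrays 1, 3 and 4 (-0.028), and Mboat2 with the hepatocyte (-0.019), adipocyte (-0.028) and endothelial (-0.096) covariates. In STZ,BEZ against STZ,SD it was Lpcat2 with median centring (0.0044), a second quantile normalization (0.020), array weights (0.0091) and the adipocyte covariate (0.021). In STZ,BEZ against Con,SD these were Lpcat2 with the hepatocyte (-0.098) and endothelial (-0.064) covariates, Mboat1 with a second quantile normalization (0.0091) and the endothelial covariate (0.038), and Mboat2 with the endothelial covariate (-0.061). Leaving out single arrays, the range was -0.040 to 0.12 in STZ,SD against Con,SD, -0.036 to 0.050 in STZ,BEZ against STZ,SD and -0.046 to 0.11 in STZ,BEZ against Con,SD for Lpcat2, -0.059 to 0.056, -0.075 to 0.040 and -0.054 to 0.029 for Mboat1, and -0.041 to 0.10 and -0.033 to 0.11 in the first and second for Mboat2. For Lypla1 it was -0.0001 to 0.083 in STZ,BEZ against STZ,SD.

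Same-numbered arrays of different groups deviated from their group means with correlations of -0.239 to 0.0830, so the numbers are not taken to pair the mice. With the replicate number as a block the 10 genes had 4, 1 and 3 calls and the pathway genes 14, 0 and 8, Pcyt1a lost its call in STZ,BEZ against Con,SD (-0.17, adjusted p = 0.11), and signs changed for Mboat2 (-0.057 in STZ,SD against Con,SD, -0.0093 in STZ,BEZ against Con,SD) and Mboat1 (0.019 in STZ,BEZ against Con,SD).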

Other observations

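Liver genes of PC metabolism were high on a single array. Pemt, which methylates phosphatidylethanolamine to PC in hepatocytes, read 10.01 on Con,SD array 1 and between 7.21 and 8.02 on the other 16 arrays. Lcat, the plasma enzyme that takes a fatty acid from PC to esterify cholesterol, read 9.89 on that array and between 5.83 and 7.11 on the others. These were chosen after their values were seen. Their differences in STZ,SD against Con,SD, -0.54 ± 0.33 (adjusted p = 0.265) for Pemt and -0.83 ± 0.46 (adjusted p = 0.225) for Lcat, did not pass in limma. The mean hepatocyte marker level of the same array was 11.8. Lpcat3 (9.82) and Chpt1 (11.01) also had their highest control values there, and without it both kept their calls.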
